A study of Mus musculus with 6 samples.

Results

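The genes described here are 9 genes of the renin-angiotensin system and of the cell surface peptidases that process its peptides, namely *Anpep*, *Enpep*, *Lnpep*, *Ace*, *Mme*, *Agt*, *Ren1*, *Agtr1a* and *Agtr2*. They were chosen by name, with earlier results of these data known. Each was matched by symbol to an Ensembl gene of the NCBIM37 mouse annotation. They are 9 of the 33460 genes listed in the RNA-seq data. The 6 libraries were made from brain tissue of P6 mice (postnatal day 6) that carried both the *NG2-DsRed* and the *Pdgfrb-eGFP* (line Tg(Pdgfrb-eGFP)JN169Gsat/Mmucd) transgenes. In 3 libraries RNA came from cells positive for both reporters, isolated by fluorescence-activated cell sorting (FACS), which are called mural cells. In the other 3 libraries RNA came from microvascular fragments, pieces of vessel captured with magnetic beads against CD31, a protein of endothelial cells (EC), and these hold EC together with attached mural cells. The study's methods state that the 3 brains were each divided along the midline, with a side used for either preparation. The labels do not say which libraries share a brain, and p-values measure the spread between these 3 and 3 samples.

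The comparison asks where the genes that make, cut and sense angiotensin are transcribed within the brain vessel wall, in pericytes (PC) and vascular smooth muscle cells or in the remainder of the fragment. Neither group lacks the reporters, and both reporters follow genes, *Pdgfrb* and *Cspg4* (NG2), that other cells also transcribe, such as fibroblasts and oligodendrocyte progenitors. *Pdgfrb* and *Cspg4* were used for sorting, so their enrichment is no finding. All 10 PC markers, which include *Pdgfrb* and *Cspg4*, were called higher in mural cells. Their summed FPKM (fragments scaled to the length of the transcript and to the depth of the library) was 2988 to 4103 in mural cells and 324 to 511 in fragments. The sorted cells were not free of other cell types by this measure. The 12 EC markers summed to 1774 to 2309 in mural cells and 2419 to 2821 in fragments, and 1 of them was called lower. For 9 of the 12, all mural cell libraries were below all fragment libraries, as for 24.5% of all genes tested, and 9 passed an unadjusted p of 0.05 in that direction. *Pecam1*, *Cdh5*, *Kdr*, *Tek* and *Egfl7* were lower at a limma adjusted p of 0.0096 to 0.024, but their ratios stayed above the limit of 0.5 for a call. Of 6 smooth muscle markers 5 were called higher, as were 4 of 6 fibroblast markers, which summed to 344 to 415 in mural cells and 38.6 to 46.4 in fragments. All 8 microglia markers, all 4 perivascular macrophage markers and all 3 choroid plexus markers were called lower in mural cells, and limma called no astrocyte, oligodendrocyte lineage, neuron or erythroid marker (at an unadjusted p under 0.05, 1 astrocyte marker, *Gfap*, and 1 neuron marker, *Map2*, would pass). No marker was at 0 in every library of either group. The part of these cell types in the values of the 9 genes was not tested. Depth differed between the groups, with approximately 5.44 to 5.97 M fragments on protein-coding genes in the libraries of microvascular fragments and 2.37, 1.04 and 1.05 M in mural cell libraries 1, 2 and 3.

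Angiotensinogen, the product of *Agt*, is the only known precursor of the angiotensin peptides. Renin cuts it to angiotensin I, and angiotensin-converting enzyme (ACE) removes a dipeptide to give angiotensin II, the peptide that acts on the type 1 and type 2 receptors. Aminopeptidase A, the product of *Enpep*, removes the N-terminal aspartate of angiotensin II to give angiotensin III, and aminopeptidase N, the product of *Anpep* and also known as CD13, shortens angiotensin III to angiotensin IV. In brain, CD13 has long been used to label PC, and it is also found on fibroblasts and myeloid cells.

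Promoters of the 3 genes on which the comparison turns are shown so that the sequences just before their starts can be set side by side. *Anpep* and *Enpep* were high in mural cells and *Ace* was high in fragments. Of the 9 genes, 8 were matched in the RefSeq promoter table of GRCm38.p6, a later build than that of the expression values, and *Agtr1a* was not. Each sequence is the 250 bases before the start of transcription, 5′ to 3′ on the strand of the gene. That of *Anpep* is chr7:79848211-79848460 on the minus strand, that of *Enpep* is chr3:129332750-129332999 on the minus strand, and that of *Ace*, the more upstream of its 2 starts in the table, is chr11:105967698-105967947 on the plus strand. Capitals mark matches on either strand to TATAAA, the core of a TATA box, and to GGGCGG, the core of a GC box.
Anpep: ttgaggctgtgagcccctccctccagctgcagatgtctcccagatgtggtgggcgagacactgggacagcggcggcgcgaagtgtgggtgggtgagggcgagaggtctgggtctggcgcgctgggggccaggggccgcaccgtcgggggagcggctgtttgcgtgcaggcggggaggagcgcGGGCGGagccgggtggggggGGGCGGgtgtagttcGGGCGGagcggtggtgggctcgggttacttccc
Enpep: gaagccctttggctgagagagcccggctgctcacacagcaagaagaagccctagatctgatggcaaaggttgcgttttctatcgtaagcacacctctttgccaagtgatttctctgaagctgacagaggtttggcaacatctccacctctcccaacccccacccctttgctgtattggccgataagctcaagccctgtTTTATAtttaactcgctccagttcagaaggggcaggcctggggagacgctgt
Ace: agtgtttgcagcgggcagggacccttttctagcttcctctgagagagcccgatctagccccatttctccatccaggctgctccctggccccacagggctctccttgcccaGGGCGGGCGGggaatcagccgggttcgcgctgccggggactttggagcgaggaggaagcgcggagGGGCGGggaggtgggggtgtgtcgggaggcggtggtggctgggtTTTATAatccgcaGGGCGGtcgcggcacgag

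The promoters of *Anpep* and *Enpep* had little in common in these letters. That of *Anpep* was 72.8% G and C, held 3 GC boxes and had no match to TATAAA. That of *Enpep* was 52.4% G and C, the median of all promoters in the table, and held no GC box. Its single match to TATAAA lay on the opposite strand, printed as TTTATA, and began 52 bases before the start. That of *Ace* was 67.2% G and C, with 4 GC boxes, of which the first and the second overlap. Its 1 match to TATAAA was also on the opposite strand, printed as TTTATA, and began 31 bases before the start. Neither promoter held TATAAA on the strand of the gene. Among 32851 promoters of the same length, 12.4% held TATAAA and 32.7% held GGGCGG on either strand. A match is a description of the letters only.

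Of the 9 genes, *Anpep*, *Enpep*, *Agtr1a* and *Agtr2* were called higher in mural cells, *Ace* was called lower, *Agt*, *Lnpep* and *Mme* were tested and not called, and *Ren1* was too low to be tested. A gene was tested when its FPKM reached 1 in at least 3 libraries, and log2(FPKM + 1) was then fitted with limma over the 14801 such genes. A call in the higher direction needed an adjusted p under 0.05 and a mean FPKM above 2 times that of fragments, and a lower call a mean below 0.5 times. Over all genes tested, 952 (6.43%) were called higher and 1493 (10.1%) were called lower. *Agtr1a* and *Agtr2* passed the filter only through the mural cell libraries. Of 89 tested genes with no fragment library at an FPKM of 1 and no overlap between the groups, 62 were called higher. All 3 mural cell libraries lay above all 3 fragment libraries for 4 of the 8 genes tested, against 2440 genes (16.5%) of all those tested. For *Agtr1a* and *Agtr2* this followed from the way they passed the filter, so only *Anpep* and *Enpep* bear on that share. All 3 mural cell libraries lay below all 3 fragment libraries for *Ace* and *Lnpep*, against 3620 genes (24.5%). The median log2 fold change over all genes tested was -0.12. Quantile normalization moved the median of all genes by 0.13 and gave 1209 higher and 1079 lower calls, with 52.8% of calls in the higher direction against 38.9%. In these bulk samples, fewer cells of a type and less RNA per cell cannot be told apart.

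**Figure D1:**
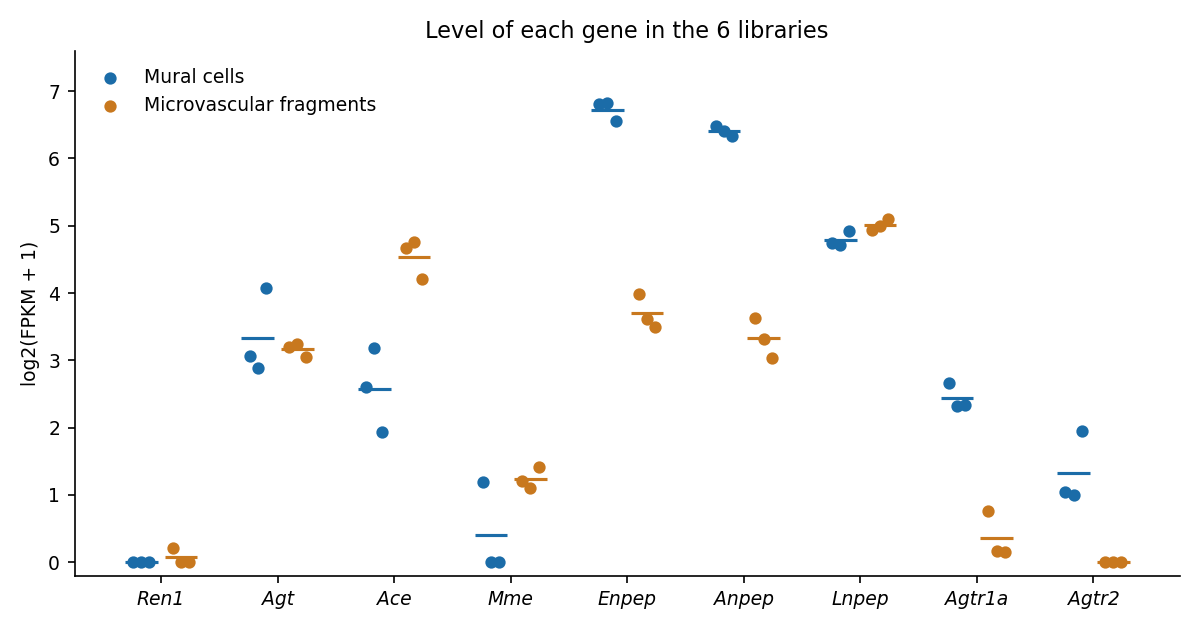
Level of each of the 9 genes in every library, with genes ordered by role along the x axis and log2(FPKM + 1) on the y axis. Points are libraries (3 mural cell, 3 microvascular fragment) and bars are group means. *Enpep* and *Anpep* lie highest in mural cells, *Ace* lies higher in fragments, and *Ren1* is at or near 0 throughout.

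*Enpep* (ENSMUSG00000028024, NCBIM37 chr3:128972093-129035638, minus strand, protein-coding) encodes aminopeptidase A and was the most abundant of the 9 genes in mural cells. Mural cell libraries 1, 2 and 3 gave an FPKM of 110.7, 111.9 and 92.9, and fragment libraries 1, 2 and 3 gave 14.8, 11.2 and 10.3. The lowest mural cell library was far above the highest fragment library. Mean FPKM was 105 ± 10.6 (SD, n = 3) against 12.1 ± 2.39, a ratio of 8.69. The log2 fold change was 3.03 (SE 0.17, 95% interval 2.64 to 3.42, limma adjusted p = 8.5e-05). Among the genes tested, 4.36% had a higher mean FPKM in mural cells and 51.7% had a higher mean in fragments.

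*Anpep* (ENSMUSG00000039062, NCBIM37 chr7:86966689-86993096, minus strand, protein-coding) encodes aminopeptidase N and followed the same course. The FPKM values of the 3 mural cell libraries were 88.2, 83.8 and 79.6 and those of the fragment libraries were 11.4, 8.95 and 7.20, again with no overlap. Mean FPKM was 83.8 ± 4.30 against 9.19 ± 2.12, a ratio of 9.12. The log2 fold change was 3.08 (SE 0.18, 95% interval 2.66 to 3.49, limma adjusted p = 9.3e-05), which ranked 48 from the top of 14801 genes, with *Enpep* at 55. The values rest on approximately 562, 224 and 225 sequenced fragments for mural cells, against 188, 136 and 121 for microvascular fragments. The difference was therefore much larger than counting error and than the spread between replicates for both genes.

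The ratio of *Anpep* to *Enpep* was much alike in both preparations. On the log2 FPKM scale *Anpep* minus *Enpep* was -0.32 ± 0.10 (SD, n = 3) in mural cells and -0.40 ± 0.10 in fragments, and the groups overlapped (exact two-sided permutation p = 0.5, of which the smallest possible is 0.1). The 10 PC markers include *Pdgfrb* and *Cspg4*, which were used for sorting. Set against the mean log2 FPKM of the 10 PC markers in the same library, *Anpep* was at -1.56 ± 0.16 in mural cells and -1.65 ± 0.10 in fragments (exact permutation p = 0.4). *Enpep* was at -1.23 ± 0.13 and -1.25 ± 0.14 on that scale (exact permutation p = 1.0). Relative to PC markers the level of both aminopeptidase genes thus differed between the groups by 0.10 and 0.01, less than the spread between libraries. These are 3 of 7 such comparisons, and no adjusted p in the family was below 0.583. With 3 against 3 libraries no exact permutation p, adjusted or not, could fall below 0.1. The tests therefore cannot show that the levels are equal.

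*Lnpep* (ENSMUSG00000023845, NCBIM37 chr17:17664687-17761453, minus strand), which encodes the insulin-regulated aminopeptidase that binds angiotensin IV, belongs to the same M1 family of zinc aminopeptidases. Mural cell libraries gave an FPKM of 25.7, 25.4 and 29.3, against 29.8, 30.8 and 33.2 for fragments. All 3 mural cell libraries were below the 3 fragment libraries, by a narrow margin. With a log2 fold change of -0.22 (SE 0.13, 95% interval -0.52 to 0.09, limma adjusted p = 0.28), no difference was called, and a 2-fold difference lay outside the interval.

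The other M1 aminopeptidase genes were counted in the same way. Of 8 matched, 6 were tested, none was called higher by limma (0 also at an unadjusted p under 0.05) and 2 were called lower, with a median log2 fold change of -0.30. With 6 genes tested, these counts are to be read against the 6.43% called higher and 10.1% called lower over all genes. The 2 were *Rnpep*, which encodes aminopeptidase B, with a ratio of 0.432 (log2 fold change -1.16, limma adjusted p = 0.0025), and *Erap1*, which trims peptides in the endoplasmic reticulum, with a ratio of 0.485 (log2 fold change -1.02, limma adjusted p = 0.015). The highest ratio of the family after *Anpep* and *Enpep* was 1.37, for *Aopep*, which was not called. *Lvrn* was listed at 0 in every library and *Trhde* at 0 in the mural cell libraries.

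*Ace* (ENSMUSG00000020681, NCBIM37 chr11:105829259-105851278, plus strand), the converting enzyme of endothelium, was the gene called lower. FPKM values of 5.06, 8.08 and 2.84 were measured in mural cells, against 24.5, 25.97 and 17.4 in fragments. The highest mural cell library was below the lowest fragment library. Mean FPKM was 5.33 ± 2.63 (SD, n = 3) against 22.6 ± 4.58, so that fragments held 4.25 times the level of mural cells. This gave a log2 fold change of -1.97 (SE 0.34, 95% interval -2.76 to -1.17, limma adjusted p = 0.0060).

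The EC markers differed less between the groups than *Ace*. Relative to the mean log2 FPKM of the 12 EC markers in the same library, *Ace* was at -4.68 ± 0.65 (SD, n = 3) in mural cells and -2.97 ± 0.19 in fragments. The groups did not overlap, with a difference of -1.71 and an exact permutation p of 0.1, the smallest possible (adjusted p = 0.583 over the 7 comparisons). ACE is also made by choroid plexus, whose 3 markers summed to 201 to 248 in mural cells and 657 to 1402 in fragments. Relative to the mean of those markers *Ace* was at -0.26 ± 0.53 and -0.77 ± 0.50, with overlap (exact permutation p = 0.4). The share of choroid plexus in the value was not tested. *Ace* overlaps the noncoding gene *Gm11651* on the opposite strand, which was listed at 0 in mural cells and averaged 3.02 in fragments. The library kit keeps the strand, but whether strand was used in quantification is not given in the sources used here, so reads of the overlap may have been assigned to either gene.

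*Mme* (ENSMUSG00000027820, NCBIM37 chr3:63099794-63186153, plus strand) encodes neprilysin, which cuts angiotensin I to angiotensin 1-7 and degrades amyloid-β. It was low in both preparations, with an FPKM of 1.29, 0 and 0 for mural cells against 1.32, 1.15 and 1.66 for fragments. Mural cell library 1, the deepest of the 3, was within the range of the fragments and the other two were at 0. The log2 fold change was -0.84 (SE 0.40, 95% interval -1.78 to 0.09, limma adjusted p = 0.18). Without mural cell library 1 it was -1.24 with an adjusted p of 0.028, so that its call depended on 1 library. At the depth of mural cell libraries 2 and 3, 3 fragments of *Mme* equal an FPKM of 0.997 and 0.943, the level that a value of 0 there allows (counting error only). Of the other 6 genes of its M13 family, 2 were tested and neither was called by limma (0 at an unadjusted p under 0.05), *Ece1* with a ratio of 1.27 and *Ece2* with a ratio of 1.47. Over all genes tested, 6.43% were called higher and 10.1% lower, so 2 genes without a call say little about the family. *Phex* was below the filter, with a mean FPKM of 0.642 in mural cells and 0.172 in fragments.

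The makeup of these membrane peptidases differed between the preparations. Of the summed FPKM of *Anpep*, *Enpep*, *Lnpep*, *Ace* and *Mme*, which is a sum per length of transcript, *Anpep* and *Enpep* together made up 86.1, 85.4 and 84.3% in mural cells, against 32.1, 25.8 and 25.1% in fragments. *Ace* made up 1.39 to 3.53% in mural cells and 25.0 to 33.2% in fragments. *Lnpep*, with nearly level FPKM, accounted for 11.1 to 14.3% in mural cells and 36.4 to 47.6% in fragments. None of these ranges overlapped between the groups, and since shares within a library add to a fixed total they are not independent of each other.

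**Figure D2:**
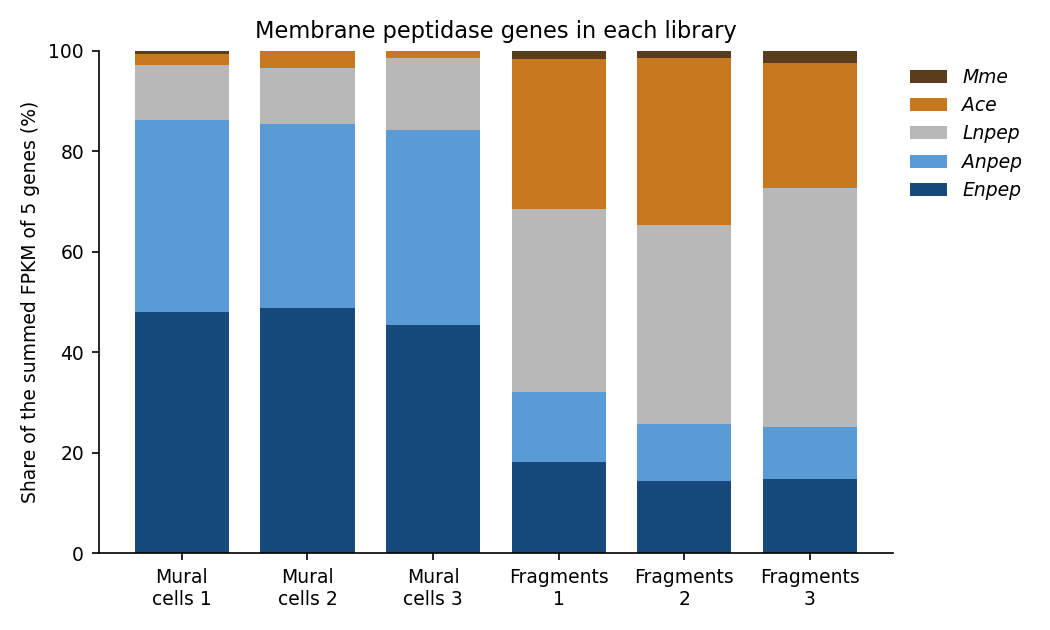
Share of 5 membrane peptidase genes in their summed FPKM, with the 6 libraries along the x axis and percent on the y axis. *Enpep* and *Anpep* (blue) fill 84.3 to 86.1% of the mural cell bars and 25.1 to 32.1% of the fragment bars, in which *Lnpep* (grey) and *Ace* (orange) take most of the remainder.

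*Agt* (ENSMUSG00000031980, NCBIM37 chr8:127080434-127093606, minus strand), the precursor, was similar in both groups. An FPKM of 7.34, 6.35 and 15.8 was measured in mural cells, against 8.14, 8.51 and 7.24 in fragments. Mural cell libraries 1 and 2 were close to the fragments and library 3 was the highest of the 6. Its log2 fold change was 0.17 (SE 0.33, 95% interval -0.61 to 0.95, limma adjusted p = 0.75), and -0.19 without mural cell library 3. In brain *Agt* is transcribed mainly by astrocytes, whose 8 markers summed to 263, 224 and 809 in mural cell libraries 1, 2 and 3 and to 310 to 430 in fragments. The library with most *Agt* also held most astrocyte transcripts. Relative to the mean log2 FPKM of those markers, *Agt* was at -1.74, -1.79 and -2.46 in mural cell libraries 1, 2 and 3. The group means were -1.997 ± 0.41 in mural cells and -2.19 ± 0.21 in fragments (exact permutation p = 0.5). The share of astrocytes in the *Agt* values was not tested.

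*Ren1* (ENSMUSG00000070645, NCBIM37 chr1:135247087-135256902, plus strand), which encodes renin, was listed at 0 in all 3 mural cell libraries and in fragment libraries 2 and 3, and its FPKM of 0.163 in fragment library 1 equals about 1 fragment. Renin cells of the kidney are themselves mural cells. The depth allowed an FPKM of up to 1.22, 2.89 and 2.74 in mural cell libraries 1, 2 and 3 (the value of 3 fragments, which covers counting error only), so *Ren1* was not detectable in mural cells at this depth. *Atp6ap2*, which encodes the (pro)renin receptor, a part of the vacuolar proton pump, was at 17.4 ± 3.19 (SD, n = 3) in mural cells and 33.0 ± 6.06 in fragments. Its log2 fold change of -0.89 had a limma adjusted p of 0.018, but the ratio, 0.527, stayed above the limit of 0.5.

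Of the receptors, *Agtr1a* (ENSMUSG00000049115, NCBIM37 chr13:30428310-30474736, plus strand), the main type 1 receptor of rodents, through which angiotensin II contracts smooth muscle, was called higher. In mural cells its FPKM was 5.36, 4.01 and 4.06, and in fragments it was 0.692, 0.118 and 0.107. The groups were well apart, and fragment library 1 stood above the other two. The values rest on few fragments, approximately 19, 6 and 6.4 for mural cells against 6.3, 1 and 1 for microvascular fragments. The log2 fold change was 2.09 (SE 0.30, 95% interval 1.38 to 2.80, limma adjusted p = 0.0028). The ratio of mean FPKM was 14.6 with all libraries and 39.7 without fragment library 1, and it was 32.6 after quantile normalization, so that its size is poorly fixed. Relative to the 10 PC markers, *Agtr1a* was at -5.80 ± 0.33 in mural cells and -7.10 ± 1.32 in fragments, with overlap (exact permutation p = 0.3).

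*Agtr1b* encodes a second type 1 receptor of rodents. The coding sequences of *Agtr1a* and *Agtr1b* are 1080 bases each and are 90.8% identical, with a longest shared run of 66 bases, so reads may be split between them and the assignment is uncertain. The FPKM of *Agtr1b* was 0.394, 0.938 and 0.887 in mural cells and was listed at 0 in fragments. The mural cell values equal at most about 1.4 fragments in each library. That number takes the longest of 2 transcripts as the length, and a shorter one would give fewer. It was below the filter.

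*Agtr2* (ENSMUSG00000068122, NCBIM37 chrX:21061670-21066290, plus strand) encodes the type 2 receptor, which opposes many actions of the type 1 receptor and is most prominent in fetal and young tissue. Its FPKM was 1.06, 1.01 and 2.85 in mural cells and it was listed at 0 in all 3 fragment libraries, where 3 fragments equal 0.213, 0.230 and 0.209. The mural cell values rest on at most approximately 5.8, 2.3 and 6.9 fragments, with the longest of 3 transcripts taken as the length. The log2 fold change was 1.33 (SE 0.35, 95% interval 0.52 to 2.14, limma adjusted p = 0.032), and no ratio is given against a group at 0. The call was lost without mural cell library 3 (adjusted p = 0.051), without any of the fragment libraries (adjusted p = 0.084 to 0.094) and with the replicate number as a block (adjusted p = 0.067).

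Among other genes of the pathway, 16 are considered here, of which 15 were matched (*Ren2* was not) and 7 were tested. None of these was called higher by limma (0 also at an unadjusted p under 0.05) and 1 was called lower, with a median log2 fold change of -0.32. Over all genes tested, 6.43% were called higher and 10.1% lower, with a median of -0.12. With 7 genes tested, counts this small do not set the pathway apart from those shares. The gene called lower was *Ctsa*, which encodes a lysosomal carboxypeptidase, with a ratio of 0.466 (log2 fold change -1.09, limma adjusted p = 0.0013). *Prcp*, which encodes a carboxypeptidase that cuts angiotensin II, had a ratio of 0.609 and a limma adjusted p of 0.036, short of the 2-fold limit. *Thop1*, *Prep*, *Nln* and *Agtrap* were tested and not called, with the highest ratio, 1.25, for *Nln*. *Mas1*, which encodes the receptor for angiotensin 1-7, was below the filter, with an FPKM of 0.256, 0 and 0 for mural cells against 0.742, 0.160 and 0.583 for fragments. *Mrgprd* was listed at 0 in every library, and *Cpa3* and *Klk1* in every mural cell library. The genes of the angiotensin receptors were therefore all far below *Anpep* and *Enpep*.

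**Figure D3:**
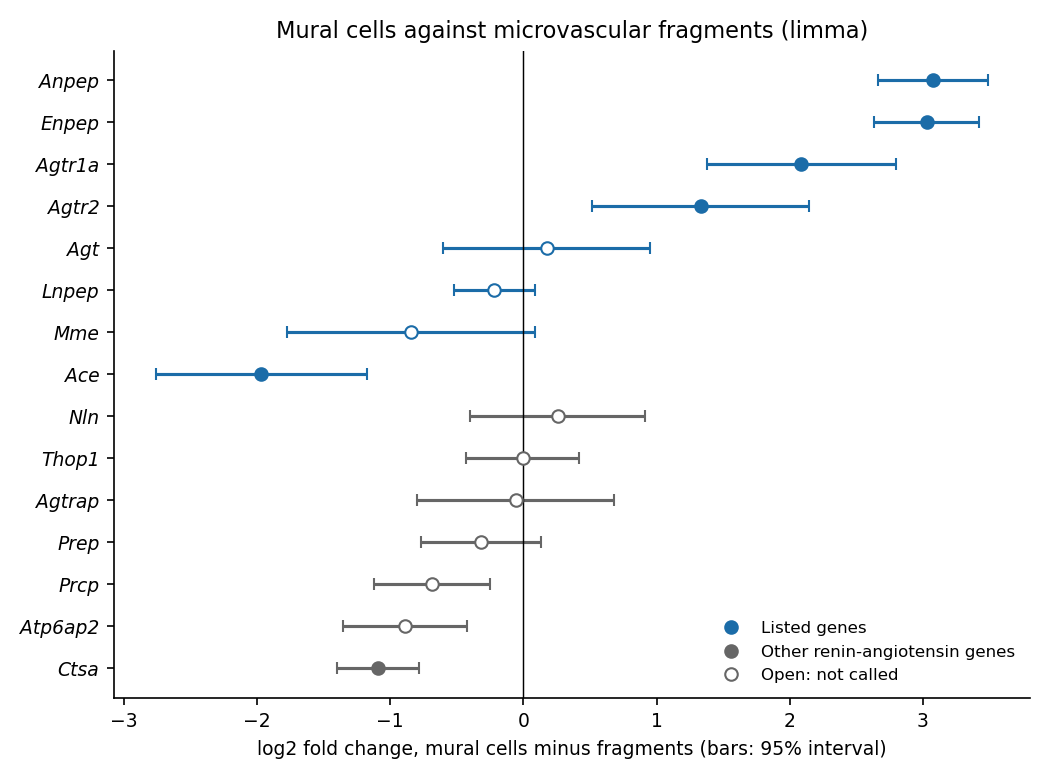
Log2 fold change on the log2(FPKM + 1) scale, mural cells minus microvascular fragments, on the x axis for the 8 tested genes (blue) and 7 other tested genes of the renin-angiotensin system (grey). Bars are 95% intervals from limma and open symbols were not called. *Anpep* and *Enpep* lie near 3, and *Ace* lies at -1.97.

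Within a preparation the levels, which are per length, had a different order. In mural cells the order was *Enpep*, *Anpep*, *Lnpep*, *Agt*, *Ace*, *Agtr1a*, *Agtr2*, *Mme* and *Ren1*. The first 3 were separated from each other and from *Agt* in all libraries, whereas *Agt* and *Ace*, *Ace* and *Agtr1a*, *Agtr2* and *Mme*, and *Mme* and *Ren1* overlapped. In fragments the order was *Lnpep*, *Ace*, *Enpep*, *Anpep*, *Agt*, *Mme*, *Agtr1a*, *Ren1* and *Agtr2*. *Enpep* and *Anpep* overlapped there, as did *Anpep* and *Agt*, *Agtr1a* and *Ren1*, and *Ren1* and *Agtr2*.

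**Figure D4:**
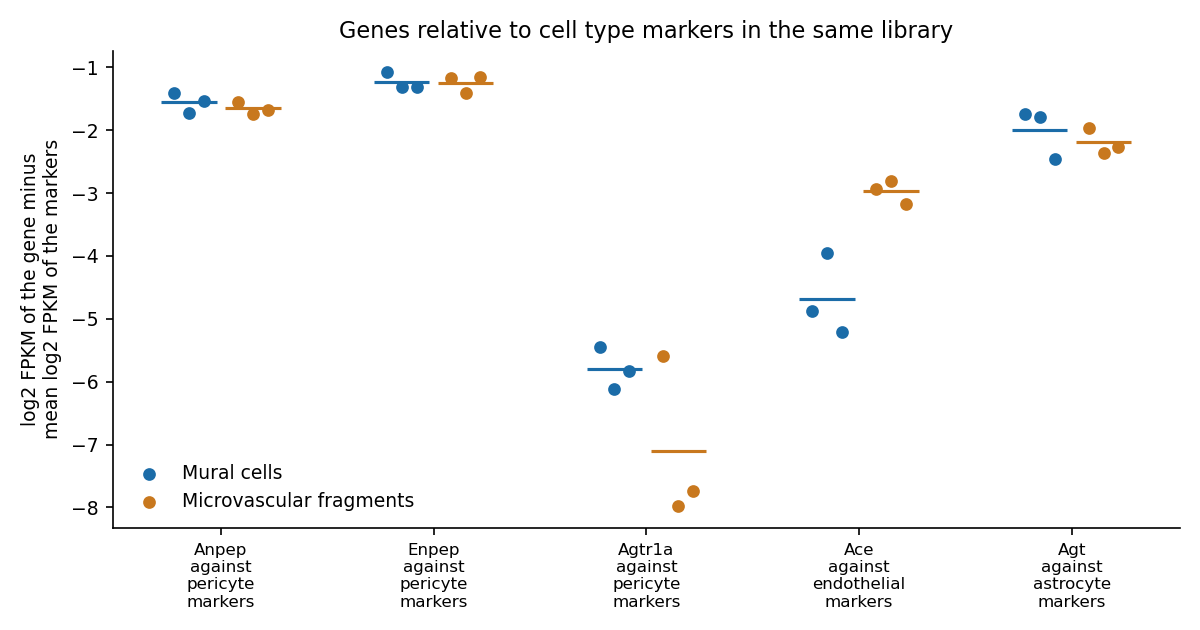
Log2 FPKM of a gene minus the mean log2 FPKM of the markers of a cell type in the same library, on the y axis, for 5 pairs of gene and marker list. Points are libraries and bars are group means. *Anpep* and *Enpep* set against PC markers overlap between the groups, which does not show that the levels are equal. *Ace* set against EC markers lies lower in all 3 mural cell libraries (exact permutation p = 0.1, the smallest possible, adjusted p = 0.583).

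The genes with the profile most like that of *Anpep* over the 6 libraries, by the root mean square difference of centred log2(FPKM + 1), were *Enpep* (0.078), *Pcolce* (0.079), *Cd248* (0.080), *E130203B14Rik* (0.104) and *S1pr3* (0.109). Those most like *Enpep* were *Pcolce* (0.049), *Abcc9* (0.071), *Anpep* (0.078), *E130203B14Rik* (0.093) and *P2ry14* (0.120). *Anpep* and *Enpep* thus each appeared among the 5 nearest genes of the other, out of 9207 genes searched. *Cd248* and *Abcc9* are 2 of the 10 PC markers, and the other genes named so far are in none of the marker lists. Smooth muscle and fibroblast markers were also raised, with median ratios of 11.0 and 6.75, so this likeness does not single out PC. The nearest genes to *Ace* were less close, *Tmcc3* (0.217), *Elf4* (0.227), *Ang* (0.229), *Rab3il1* (0.253) and *Rasa4* (0.261). All points share the same 6 libraries, and likeness here follows mainly the difference between the groups.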

How the data were processed

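RNA-seq was performed on 3 libraries of FACS sorted mural cells and 3 of microvascular fragments from P6 mouse brain. The deposited values are FPKM per Ensembl gene and library, which the authors made with Cufflinks 2.2.1 after TopHat2 2.0.4 alignment of read pairs (NCBIM37) and removal of duplicates by Picard 1.92. Symbols came from GENCODE of the same build, which holds 33116 of the 33460 genes. FPKM are not counts, so log2(FPKM + 1) was fitted with limma 3.58.1 (R 4.3.3, intensity trend, Benjamini-Hochberg adjustment), which understates changes of low genes. Ratios are of mean FPKM. Exact permutation tests, two-sided, were run in SciPy 1.17.1 (Python 3.11.15). Fragments were recovered from the value of 1 fragment in genes with a single transcript, taking 200 bases off the transcript length, and 97.9 to 98.6% of low values were whole within 0.1. For genes with several transcripts they are approximate.

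The genes and lists were chosen with earlier results of these data known. Named were the 9 genes, called genes of the other lists, those overlapping a listed gene in function, the highest and lowest ratios among the tested genes of a list, and the 5 nearest profiles among tested genes with a mean FPKM of at least 10 in either group. The fit was tested on simulated data. As alternatives, each library was left out in turn, the filter was dropped or raised to an FPKM of 5, values were scaled by median ratios or quantiles, the pseudocount was set to 0.1, the intensity trend was dropped, a replicate block was added, the adjusted p limit was set to 0.01 and the limit of 2 was put on the fold change of limma. Supplementary tables and imaging were not analysed here, and 2 genes first placed in the lists, 1 of the pathway and 1 marker, are not reported here.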

Additional observations from a re-analysis of the deposited data

How the results depend on the processing

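The calls of *Anpep*, *Enpep* and *Ace* kept their direction and stayed past the threshold under the 13 alternatives that gave a fold change, with log2 fold changes of 2.93 to 3.23, 2.93 to 3.17 and -2.27 to -1.65, as did *Agtr1a* under the 12 that gave a value (1.98 to 3.78). *Lnpep* was not called under any of its 13 (-0.28 to -0.17). The call of *Agtr2* was lost with the replicate number as a block (1.33, limma adjusted p = 0.067) and without mural cell library 3 or any 1 fragment library, and was kept without mural cell library 1 or 2. With libraries left out its values were 1.02 to 1.49, and with a pseudocount of 0.1 it was 3.96 (adjusted p = 0.013). Leaving out libraries moved *Agt* from -0.19 to 0.40, the lowest without mural cell library 3, and *Mme* from -1.24 to -0.65, and quantile normalization turned *Mme* to 0.035, while a pseudocount of 0.1 gave -2.60 (not called). The filter at an FPKM of 5 removed *Agtr1a*, *Agtr2* and *Mme*, which left 2 of the 9 genes called higher. Leaving out libraries gave 1 to 2 of the 9 genes lower, 1 to 2 other renin-angiotensin genes lower and 1 to 2 other M1 aminopeptidase genes lower. Without a filter 1 other renin-angiotensin gene was higher, against 0, and with quantile normalization or an adjusted p under 0.01 the number of other M1 aminopeptidase genes lower was 1. Over all genes, 948 were lower with the filter at 5, 845 at an adjusted p under 0.01, and 988 to 1751 with libraries left out. Same-numbered libraries of the 2 groups correlated at 0.082, 0.020 and 0.045 in their deviations from group means, each the best match of its library but none over 0.1. Such weak values cannot decide whether equal numbers mark the same brain, and the labels do not say. The main fit was therefore unpaired. The block gave 900 higher and 1344 lower calls and changed no other call of the 9 genes. Causes of these changes were not tested, except that fewer genes or samples entered the filtered and left-out fits. Depth in mural cells (1.04 to 2.37 M fragments) limits *Agtr1a*, *Agtr2*, *Agtr1b*, *Mme* and *Ren1*.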
